A study of Sus scrofa with 22 samples.

Results

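Subcutaneous fat of Pietrain pigs was compared with that of Large White pigs in thin fat alone, by small RNA sequencing. The comparison used 7 of the study's 22 libraries, 3 from Pietrain and 4 from Large White, chosen as the libraries of these breeds whose labels class the fat as thin. All came from female pigs of 6 months, and the labels give the fat class as a word with no thickness. No thick fat library entered the comparison of breeds, and the Hampshire pigs of the same study were not used. The labels name no line, farm, diet or date, so breed cannot be told apart from anything else that differed between the herds or between the library batches of the breeds. Nothing in the labels says that the libraries came from separate animals, so the spread behind each p-value is that between 7 libraries and may be technical.

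Counts were given per sequence, with a pig miRNA name, in 1 table per breed. Sequences of 1 name were summed in each table, and the tables were then joined on the names found in both. There were 217 names in the table for Pietrain and 224 in that for Large White, with 206 in both, 205 of them with reads in thin fat. Of these, 168 passed the filter on low counts and were tested. The 7 libraries held between 1447730 and 2731336 reads, at least 99.926% of them in the joined names. The protocol names no molecular identifiers, so reads copied by PCR cannot be told from separate molecules.

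For 1 library used here, the label and the authors' deposited comparison disagreed. The authors' deposited table of thick against thin fat in Pietrain correlated at r = -0.99997 over 7039 sequences with a refit by the labels, the sign following from the direction of subtraction. For Large White the same refit gave r = -0.65 over 6796 sequences, and r = -0.999962 once thin replicate 1 and thick replicate 1 were exchanged. The library labelled Large White thin fat replicate 1 is therefore doubtful as to its fat class. Whether the labels or the deposited comparison hold the exchange was not tested. Results are given with it, as labelled, and the fold changes, list medians, library measures and counts of calls also without it.

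MicroRNAs are short RNAs that an Argonaute protein carries to messenger RNAs, where pairing through the seed near the 5′ end lowers translation and stability of the target. Many are cut from longer transcripts of protein-coding host genes or from clusters that are transcribed together. In fat they are known to take part in the differentiation of adipocytes, in lipid storage and in the cross-talk with vessels and immune cells.

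The sequences below are the most abundant ones of the 8 miRNAs called by DESeq2, an alternative to the main test. The main test called none of them. They are shown as the authors' deposited tables give them, with the seed (bases 2 to 8) in capitals. miR-17-5p is added because it has the seed of miR-20a. For miR-140-3p the second most abundant sequence is added, since it starts 1 base earlier and so has another seed.
miR-140-3p: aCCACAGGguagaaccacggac
miR-140-3p, longer at the 5′ end: uACCACAGgguagaaccacggac
miR-26a: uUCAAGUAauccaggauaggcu
miR-486: uCCUGUACugagcugccccgagu
miR-20a: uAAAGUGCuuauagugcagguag
miR-17-5p: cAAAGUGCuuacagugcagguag
miR-145-5p: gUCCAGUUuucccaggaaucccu
miR-128: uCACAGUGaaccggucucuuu
miR-504: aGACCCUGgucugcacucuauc
miR-744: uGCGGGGCuagggcuaacagc

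No miRNA name passed the main test between the breeds. With edgeR's quasi-likelihood test and Benjamini-Hochberg adjustment, 0 of 168 names (0%) had an adjusted p under 0.05, and 21 had an unadjusted p under 0.05 (12.5%), 11 higher (6.55%) and 10 lower (5.95%) in Pietrain. DESeq2 called 8 names (4.76%), namely miR-140-3p, miR-26a, miR-486, miR-20a and miR-145-5p on the higher side and miR-128, miR-504 and miR-744 on the lower side. limma-voom with quality weights called 0. In 24 names (14.3%) the libraries of the breeds did not overlap, 13 with all Pietrain libraries higher (7.74%) and 11 with all lower (6.55%). The median log2 fold change (Pietrain minus Large White) over all names was 0.05, with 91 names above 0 and 77 below. Under upper quartile scaling this median was -0.17 and with library totals alone -0.11, so small fold changes of either sign depend on the scaling. Without Large White thin fat replicate 1, edgeR called 0 names and 19 had an unadjusted p under 0.05. Leaving out Pietrain replicate 2 gave 2 calls, miR-140-3p and miR-378/378b-3p, and leaving out Pietrain replicate 1 gave 1, miR-142-5p. For miR-378/378b-3p the library left out was the only Pietrain library with a high level. For miR-142-5p it was the only Pietrain library listed at 0, as every Large White library was.

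miR-140-3p, from a hairpin best known for its role in cartilage, had the smallest p. Its levels were 9331, 5365 and 7026 CPM (reads over the library's total in units of 1e6, scaled by TMM, the trimmed mean of M-values) in Pietrain and 3988, 4038, 3889.9 and 3718 CPM in Large White. Every Pietrain library lay above every Large White library, and the Large White libraries lay close together. The log2 fold change was 0.89 ± 0.20 (SE), with a 95% interval of 0.43 to 1.35 and an edgeR adjusted p of 0.267. Without Large White replicate 1 it was 0.83 ± 0.21, with an edgeR adjusted p of 0.372. DESeq2 gave an adjusted p of 4.34e-04, and without Pietrain replicate 2 edgeR gave a log2 fold change of 1.06 with an adjusted p of 0.0456. Its adjusted p lay between 4.34e-04 and 0.428 under the 18 alternatives. The opposite arm of the hairpin, miR-140-5p, had 273, 265 and 306 CPM in Pietrain and 288, 323, 253 and 228 CPM in Large White, and its log2 fold change was 0.04 ± 0.18. In the annotation of Sscrofa11.1 the hairpin lies within WWP2, which encodes a ubiquitin ligase.

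The reads named miR-140-3p were spread over many forms, the most abundant of which held 14.8% of them. The form that starts with accac had 1468, 778 and 1040.3 CPM in Pietrain and 583, 580.3, 536 and 526 CPM in Large White. The form that starts 1 base earlier, shown above with its other seed, had 1075, 514 and 673 CPM in Pietrain and 443, 374, 436 and 397 CPM in Large White. Both forms were higher in each Pietrain library. Of 42 miR-140-3p sequences tested singly, 42 had a log2 fold change above 0, and in 27 all Pietrain libraries were higher, where over all 3013 sequences tested 13.7% were. edgeR called none of these 42 after adjustment. The sequences of a name are parts of its sum in the same libraries, and the name was picked from these data. Their shared direction, here and for the names below, is therefore no independent support. Fold changes of single sequences were scaled by TMM factors of their own. Their CPM and overlap used the factors of the summed names, so a sequence's fold change and CPM need not match.

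miR-26a, which is known to favour the differentiation of human adipocytes, was among the 10 most abundant miRNAs. It had 70559, 69700.2 and 75894 CPM in Pietrain and 60367, 60623, 51921 and 52332 CPM in Large White. The breeds did not overlap, at a log2 fold change of 0.36 ± 0.10 (edgeR adjusted p = 0.267), which is a 1.28-fold higher level. With upper quartile scaling it was 0.14, and over left-out libraries it was 0.24 to 0.41. Of its 125 sequences tested, 87 had a fold change above 0. In 40 of the 125 all Pietrain libraries were higher, where over all 3013 sequences tested 13.7% were.

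miR-20a and miR-17-5p are neighbours in the miR-17-92 cluster, which promotes cell proliferation. miR-20a had 821, 453 and 499.7 CPM in Pietrain and 371, 283, 337 and 311 CPM in Large White, with no overlap, a log2 fold change of 0.86 ± 0.25 and an edgeR adjusted p of 0.267. miR-17-5p had 377, 266 and 243 CPM against 223, 188, 201 and 192 CPM, again with no overlap, at 0.56 ± 0.20 (edgeR adjusted p = 0.343). Without Pietrain replicate 1, the highest library for both, miR-20a stood at 0.54 and miR-17-5p at 0.33. With miR-20b, the other tested name with the seed AAAGUGC, the log2 fold changes of this seed ran from 0.34 to 0.86. miR-106a has the same seed and was too low to be tested. Of the 6 members of the cluster and its paralogs that were tested, 0 passed the edgeR test and 6 were above 0, where 54.2% of all names were. All Pietrain libraries were higher in 2, the miR-20a and miR-17-5p given above, where over all names tested 7.74% were. The median was 0.37 beside 0.05 over all names. Without Pietrain replicate 1 that median was 0.19. The summed level of the list was 6484 to 14203 CPM in Pietrain and 5679 to 7864 CPM in Large White, and miR-92a, its most abundant member, had 12814, 6279 and 5599.6 CPM in Pietrain and overlapped with Large White.

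miR-486, found in red blood cells and muscle, had 448, 194 and 164 CPM in Pietrain and 84.8, 116, 131 and 100.1 CPM in Large White. The log2 fold change was 1.31 ± 0.38 (edgeR adjusted p = 0.267). The breeds did not overlap, and replicate 1 was the highest of the Pietrain libraries. Without it the log2 fold change was 0.72. Its hairpin lies within ANK1, a gene for a membrane protein of red blood cells, in Sscrofa11.1. The 4 red blood cell markers tested were all above 0 with a median of 0.56 (0.84 without Pietrain replicate 3). Their summed level was 6699.9 to 14148 CPM in Pietrain and 5968 to 8072 CPM in Large White. In Pietrain most of it was miR-92a, which is also in the list of the miR-17-92 cluster, so its reads count in both sums. The log2 fold change of miR-92a was 0.39, and -0.087 without Pietrain replicate 1. miR-451, the marker most restricted to red blood cells, had 461, 997 and 258 CPM in Pietrain and 480.1, 293, 219 and 391 CPM in Large White, with overlap. The part of blood in the miR-486 result was not tested. In bulk tissue, more cells of a type and more RNA per cell cannot be told apart.

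miR-145-5p, a smooth muscle miRNA that is made together with miR-143, had 6502, 6436 and 5067 CPM in Pietrain and 4822, 4330.4, 4361 and 4519 CPM in Large White. The breeds did not overlap, at a log2 fold change of 0.41 ± 0.14 (edgeR adjusted p = 0.327). With upper quartile scaling it was 0.21, and with each name cut to its most abundant sequence it was 0.23 ± 0.13. When sequences were tested singly, that sequence, which held 60.1% of the miR-145-5p reads, overlapped at 0.08 ± 0.16. The next 2 in abundance overlapped as well, at 0.08 and 0.06. The scaling of that test is not that of the summed names, so these values cannot be set directly against 0.41. Of 27 sequences tested, 5 had all Pietrain libraries higher, where over all 3013 sequences tested 13.7% were. miR-143-3p, the second most abundant miRNA, had 74481, 138916 and 99112 CPM in Pietrain against 75648, 84802, 52116 and 73519 CPM, with overlap, at 0.54 ± 0.25, or 0.28 without Pietrain replicate 2. Of 8 smooth muscle and stroma markers tested, 6 were above 0, with a median of 0.29 (0.19 without Large White replicate 4) and a summed level of 92319 to 162080 CPM in Pietrain and 58422 to 102695 CPM in Large White. miR-199ab-3p and miR-199b-5p of this list were listed at 0 in Large White replicates 2 and 3.

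miR-128, which is most abundant in brain and has hairpins within R3HDM1 and ARPP21 in Sscrofa11.1, had the smallest p of the lower names. It had 637, 707 and 688 CPM in Pietrain and 1108, 919, 1268 and 1307 CPM in Large White. The Pietrain libraries all lay below and close together, at a log2 fold change of -0.76 ± 0.18, with a 95% interval of -1.18 to -0.35 and an edgeR adjusted p of 0.267. Without Large White replicate 1 it was -0.83 ± 0.21. Of 16 miR-128 sequences, 14 were below 0, and in 8 all Pietrain libraries were lower, where over all sequences 3.32% were. miR-128 is also the main member of the nerve list and makes up most of its sum. That sum was 733 to 794 CPM in Pietrain and 973 to 1360.3 CPM in Large White. Of the 2 members of the list tested, 1 was above 0 and 1 below, with a median of -0.22. The part of nerve in the miR-128 result was not tested.

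miR-504, known as a regulator of p53 and placed within FGF13, had 135, 115 and 125 CPM in Pietrain and 203, 162, 205 and 219 CPM in Large White. The log2 fold change was -0.66 ± 0.17 (edgeR adjusted p = 0.267), with no overlap. miR-744, which lies within MAP2K4, a kinase gene of the stress pathway, had 361, 261 and 190.2 CPM against 435, 483, 673 and 517 CPM. It did not overlap either, at -0.96 ± 0.28 (edgeR adjusted p = 0.267), and 9 of its 9 sequences were below 0. All 8 names that DESeq2 called kept the sign of their fold change under each of the 18 alternatives. They were picked on these same libraries, and DESeq2 is 1 of the 18, so a kept sign is no independent support.

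**Figure D1:**
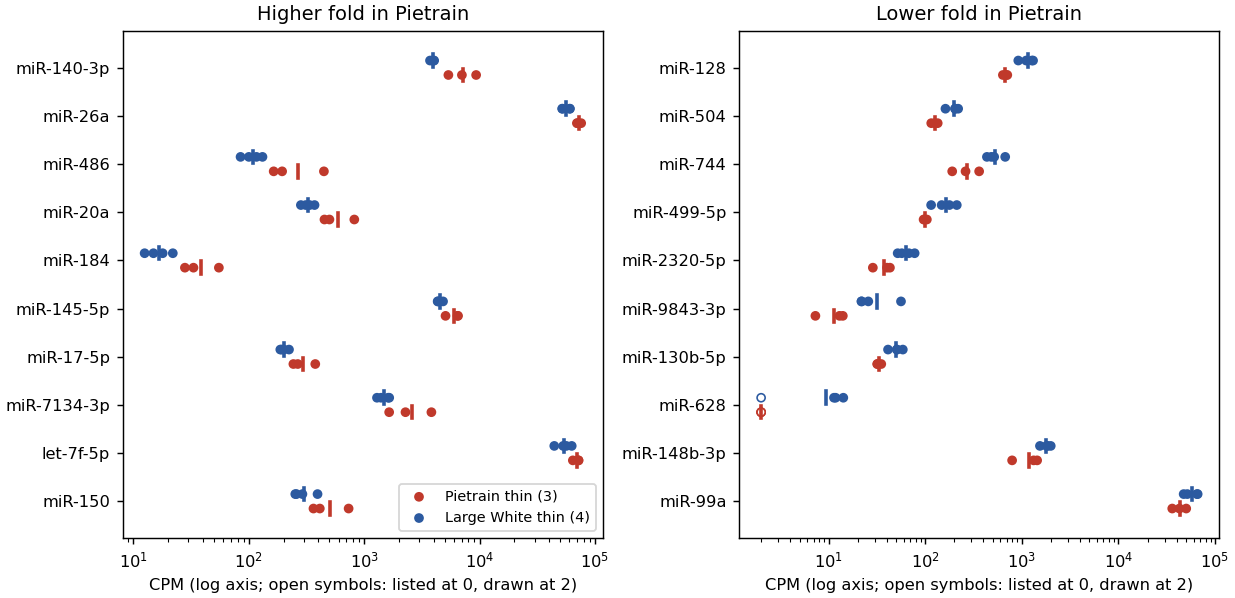
CPM on a log axis for the 10 miRNAs of smallest p in each direction; each point is a thin fat library, red for Pietrain (3) and blue for Large White (4), the short line is the group mean, and open points of miR-628 are listed at 0. The red and blue points of miR-140-3p, miR-26a, miR-128, miR-504 and miR-744 do not overlap, while those of miR-7134-3p, miR-150 and miR-99a do.

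Other names of small p covered a wide range of levels. miR-184, a miRNA of epithelia, had 55.0, 33.1 and 28.0 CPM in Pietrain and 17.9, 14.9, 22.0 and 12.5 CPM in Large White, at 1.20 ± 0.36 (edgeR adjusted p = 0.288). miR-499-5p, which lies within the myosin gene MYH7B and marks slow muscle, had 96.2, 104 and 98.2 CPM against 212, 115, 148 and 178 CPM, at -0.72 ± 0.24 (edgeR adjusted p = 0.327). Neither overlapped. The other muscle markers tested, miR-206 and miR-133a-3p, overlapped and stood at 1.07 and 1.23, the latter with 347, 122 and 1000.1 CPM in Pietrain and 114, 432, 215 and 79.0 CPM in Large White. Leaving out 1 library gave 0.16 (without Pietrain replicate 3) to 1.88 (without Large White replicate 2) for miR-133a-3p. The median of the 3 muscle markers tested was 1.07, and -0.59 without Pietrain replicate 3. miR-2320-5p, miR-9843-3p and miR-130b-5p did not overlap between the breeds, with log2 fold changes of -0.77, -1.45 and -0.61. miR-7134-3p at 0.80, the lymphocyte miRNA miR-150 at 0.75 and miR-99a at -0.42 overlapped. Without Pietrain replicate 1 the first was 0.39 and the second 0.37, and without Large White replicate 3 miR-99a was -0.27. Of the 3 leukocyte markers tested, 1 was above 0, which was miR-150, and 2 were below. Their median was -0.49, and -0.80 to -0.16 over left-out libraries. The epithelium and skin markers tested were 3, with miR-184 alone above 0 and 2 below. The median of this list was -0.34, and -0.78 to 0.24 over left-out libraries. It is the value of miR-429, which was listed at 0 in Pietrain replicate 3. miR-148b-3p, which shares the seed CAGUGCA with miR-148a-3p and miR-152, had 793, 1324 and 1439.8 CPM in Pietrain and 1849.8, 1992, 1540.0 and 1800.0 CPM in Large White, at -0.60 ± 0.24, or -0.39 without Pietrain replicate 1. The other 2 names of this seed stood at -0.02 for miR-148a-3p and 0.13 for miR-152. miR-628 was listed at 0 in all 3 Pietrain libraries and in Large White replicate 4, and had 11.8, 11.4 and 14.2 CPM in the other Large White libraries.

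The most abundant miRNA, miR-148a-3p, which promotes adipogenesis, showed no difference that the test could find. It had 162628, 190301 and 177309 CPM in Pietrain and 147699, 194614, 169725 and 203287 CPM in Large White, a log2 fold change of -0.02 with a 95% interval of -0.33 to 0.30. Of the 10 most abundant names, miR-26a, let-7f-5p and let-7g did not overlap, where over all names tested 14.3% did not. The names let-7a, let-7i-5p, miR-143-3p, miR-10b, miR-99a and miR-126-3p overlapped. The 10 held 68.8% ± 1.96 (SD, n = 3) of reads in Pietrain and 69.4% ± 1.57 (SD, n = 4) in Large White.

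**Figure D2:**
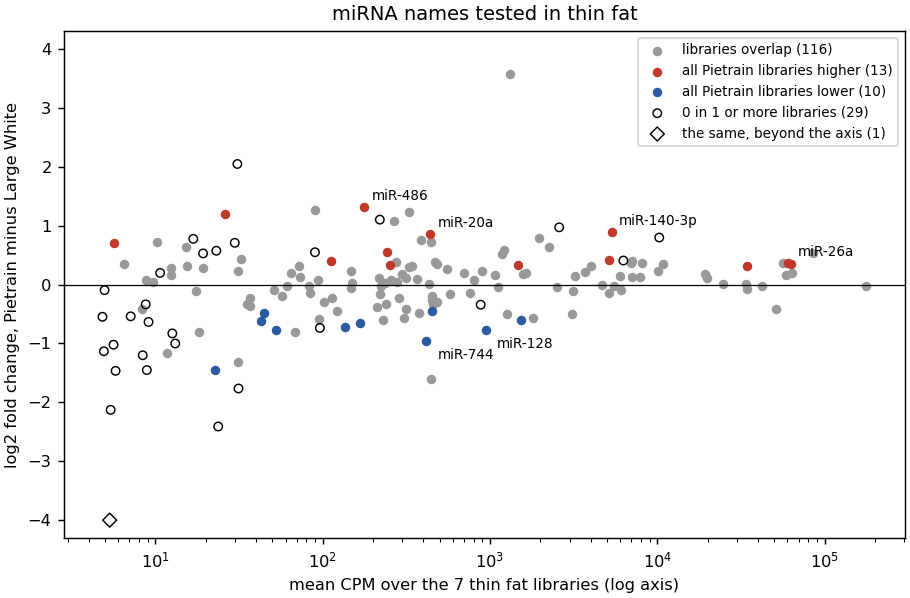
Fold change of the 168 tested names (log2, Pietrain over Large White) against their mean CPM over the 7 thin fat libraries on a log axis; red and blue points have all Pietrain libraries higher or lower, and open symbols have a 0 in 1 or more libraries. The 10 most abundant names lie between -0.42 for miR-99a and 0.54 for miR-143-3p, and miR-122 is the highest point, at 3.58.

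The let-7 family, which restrains proliferation and is known to repress adipogenesis when overexpressed in precursor cells, had 9 members tested, 6 above 0. let-7f-5p had 71996, 64282 and 71907 CPM in Pietrain and 62844, 56434, 44378 and 52990.4 CPM in Large White, with no overlap and a log2 fold change of 0.36 ± 0.13 (edgeR adjusted p = 0.348). let-7g, with 43668, 35167 and 38176 CPM against 35055, 33634, 26780.1 and 29436 CPM, was the other member without overlap, at 0.32, or 0.21 without Large White replicate 4. All Pietrain libraries were thus higher in 2 of the 9 members, where over all names tested 7.74% were. With upper quartile scaling let-7f-5p was 0.15 and let-7g 0.098. The 8 names with the let-7 seed GAGGUAG ran from -0.11 to 0.36, and the family's median of 0.19 became -0.04 under upper quartile scaling, and 0.039 to 0.31 over left-out libraries.

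Lists of adipocyte biology showed no common direction, and edgeR called 0 members of any list. Of 17 names listed as promoters of adipogenesis 10 were above 0 (median 0.02, and -0.028 to 0.23 over left-out libraries). Of 17 listed as repressors 12 were (median 0.16, or -0.05 under upper quartile scaling and 0.041 to 0.20 over left-out libraries). A list name without an arm stood for both arms. miR-143-5p thus counts as a promoter and miR-27a-5p as a repressor, whether or not the effect is known for that arm. Of 19 linked to thermogenic adipocytes 9 were above 0, with a median of -0.10 that changed sign under 2 of the alternatives, and miR-455-5p of this list, which promotes brown adipocyte differentiation, was lower in every Pietrain library at -0.44 ± 0.20. The summed level of that list was 88704 to 95979.9 CPM in Pietrain and 71681 to 81114 CPM in Large White, most of it from miR-26a. In the imprinted DLK1-DIO3 cluster 1 of 5 was above 0, with a median of -0.58, which is the value of miR-127 and was -0.35 without Pietrain replicate 2. miR-127 had 1463, 936 and 1851 CPM in Pietrain against 1508, 2151, 2283 and 2506 CPM. The X-linked cluster of miR-424 and miR-450 had 0 of 3 above 0 and a median of -0.42, and -0.92 without Pietrain replicate 2 or -0.15 without replicate 3. Over all names tested, 54.2% were above 0.

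The miRNAs listed as adipocyte markers were abundant in every library, with a summed level of 359514 to 442401 CPM in Pietrain and 315976 to 379384 CPM in Large White. miR-143-3p is in this list and in that of smooth muscle and stroma, so its reads count in both sums. Other tissues left traces that varied within a breed. miR-122, the main miRNA of liver, had 444, 7815 and 5.45 CPM in Pietrain and 67.8, 663, 162 and 30.7 CPM in Large White, and its log2 fold change of 3.58 became -0.04 without Pietrain replicate 2. Summed muscle markers were at 263 to 2011 CPM in Pietrain and 286 to 1056 CPM in Large White. Summed leukocyte markers were at 1673 to 2561 CPM and 1691 to 2479 CPM, and endothelial miR-126 arms at 34522 to 50442 CPM and 36134 to 47592 CPM. In these 4 lists the ranges overlapped between the breeds.

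**Figure D3:**
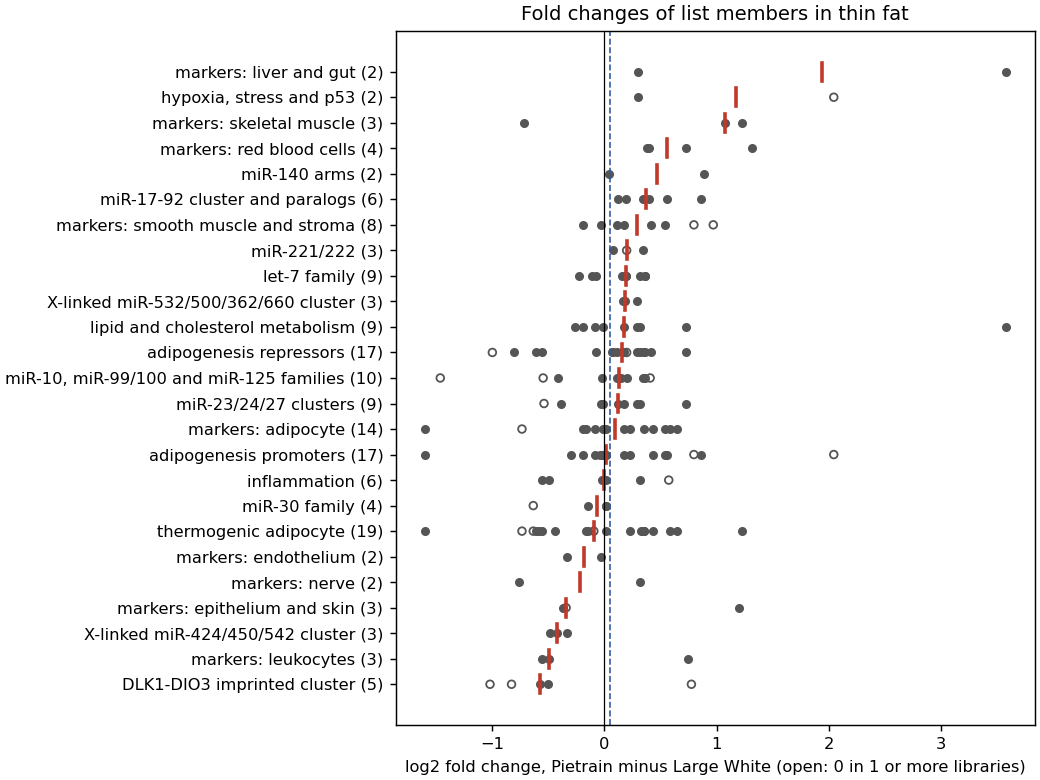
Fold changes (log2, Pietrain over Large White) of the tested members of each list, with the number tested in parentheses; the red line is the list's median, the dashed line the median of all names, and open points have a 0 in 1 or more libraries. Members lie on both sides of 0 in the adipocyte, adipogenesis and let-7 lists, and above it in the miR-17-92 and red blood cell lists.

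Without the doubtful Large White replicate 1, miR-628 of the 51 named miRNAs was no longer tested. Each of the others kept the sign of its fold change except miR-21, which lay near 0. By edgeR none of those tested passed. Among the names DESeq2 had called, miR-26a stood at 0.34, miR-145-5p at 0.39, miR-20a at 0.86 and miR-486 at 1.12. On the lower side miR-504 stood at -0.69 and miR-744 at -1.12. The adjusted p was 0.415 for miR-26a and 0.372 for the other 5. let-7i-5p moved from 0.36 to 0.23. List medians were 0.28 for the miR-17-92 cluster, 0.59 for red blood cells, 0.32 for smooth muscle and stroma, 0.15 for let-7, 0.066 and 0.20 for promoters and repressors of adipogenesis, -0.047 for thermogenic adipocytes, 0.79 for muscle, -0.75 for the DLK1-DIO3 cluster and -0.47 for miR-424 and miR-450. The breed difference in reads with a changed first base was 0.365 percentage points and that in reads longer at the 3′ end 1.26.

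Both arms of 26 hairpins were tested, and in 17 the arms had fold changes of the same sign. For miR-148b the arms stood at -0.60 and -0.80, and for miR-127 at -0.58 and -0.83. The arms of miR-365 stood apart, at -0.17 for miR-365-3p and 0.64 for miR-365-5p.

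Some abundant names were listed at 0 in single libraries, which the test of fold changes cannot treat well. The smallest count above 0 was 6, so up to 5 reads of a sequence may lie behind a listed 0. 10 names with a median of at least 100 CPM where present had a 0 in some thin fat library, 3 to 4 per Pietrain and 4 to 7 per Large White library. miR-10a-5p had 12198 and 9714 CPM in Pietrain replicates 1 and 3, was listed at 0 in replicate 2, and had 4977 to 6259.7 CPM in Large White. miR-142-5p, a leukocyte miRNA, had 409.9 and 461 CPM in Pietrain replicates 2 and 3 and was listed at 0 in the other 5 libraries. miR-199ab-3p had 7835, 11877 and 21027 CPM in Pietrain and 16699, 0, 0 and 14538 CPM in Large White. miR-574-3p was at 282 to 340.2 CPM in Pietrain and at 0, 0, 319 and 269 CPM in Large White. None of the 10 names had a level between 0 and 96.6 CPM in any library. miR-378/378b-3p did so nearly, with 9.95 and 4.77 CPM in Pietrain replicates 1 and 3, 600.5 CPM in replicate 2 and 577 to 677 CPM in Large White, while miR-378 had a log2 fold change of 0.23 ± 0.18. For Pietrain, 10 sequences stand under both miR-429 and miR-200b, which for Large White stand under miR-429 alone, so miR-429, listed at 0 in Pietrain replicate 3, is uncertain. The name miR-30a-5p sums sequences with C or U at position 12, those with C being 50.5% to 64.8% of its reads. The median of the adipogenesis promoters is the value of this name, so it rests on that mix.

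**Figure D4:**
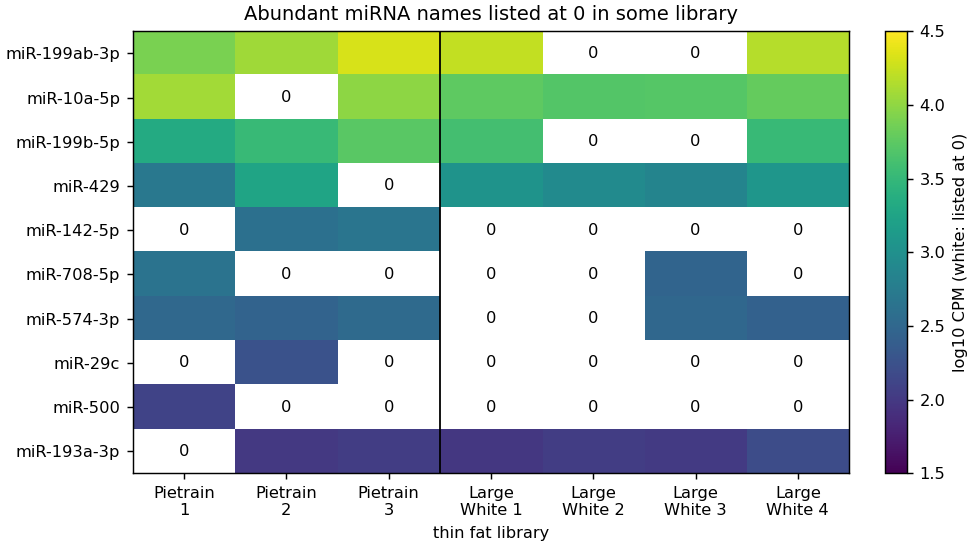
Level of the 10 abundant names listed at 0 in some thin fat library, as log10 CPM (colour), with white cells and the digit 0 where the name is listed at 0; the black line parts the 3 Pietrain from the 4 Large White libraries. Zeros fall in every library, and miR-142-5p, miR-29c and miR-500 have reads in Pietrain libraries alone.

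Whether the breed difference was particular to thin fat was tested by setting it against the same difference in thick fat, over 15 libraries of both classes. edgeR called 0 of 182 names (0%) for this interaction, and 5 had an unadjusted p under 0.05 (2.75%). The calls of DESeq2 were 2, miR-142-5p and miR-500, both with listed zeros. In that fit the thin fat of Pietrain averaged 6949.8 ± 1481 CPM (SD, n = 3) of miR-140-3p, and that of Large White 3908 ± 169 CPM (SD, n = 4). Thick fat averaged 4635 ± 548 CPM (SD, n = 4) in the first breed and 4398 ± 956 CPM (SD, n = 4) in the second. Its log2 fold change was 0.83 in thin and 0.08 in thick fat, a difference of 0.75 ± 0.24 with an edgeR adjusted p of 0.676, which lay between 0.0763 and 0.999832 under the alternatives. Without the first Large White library of each fat class, which are the pair in doubt, the difference was 0.57 ± 0.22 (edgeR unadjusted p = 0.0243), and 0 of 179 names were called with 6 at an unadjusted p under 0.05. let-7f-5p, miR-7 and miR-128 had unadjusted edgeR p-values of 0.0416, 0.0111 and 0.0445 and did not pass either. No difference was thus shown to belong to thin fat alone.

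Single sequences gave a different picture from summed names. Of 3013 sequences listed in both tables and tested, edgeR called 43 (1.43%), 41 higher (1.36%) and 2 lower (0.0664%) in Pietrain, and 406 had an unadjusted p under 0.05. DESeq2 gave 141 calls, 100 higher and 41 lower, and limma-voom gave 32, 29 higher and 3 lower. Among sequences with reads in every library edgeR called 62, 52 higher and 10 lower. The higher side was thus the larger under each, by different margins. The 43 belonged to 19 names, led by miR-143-3p with 7, miR-148a-3p with 5 and miR-126-3p and miR-99a with 4 each. None was the most abundant sequence of its name, a class with 162 tested. Without Large White replicate 1, edgeR called 34, 30 of the 43 among them. Without Pietrain replicate 3 or Large White replicate 3 it called 25, and without Large White replicate 4 it called 26.

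The called sequences differed mostly by 1 base from the most abundant sequence of their name. They are shown for 5 names, to let the place of the change be seen, which was the first base in 3 of them. In each pair the deposited tables' most abundant sequence comes first and the called sequence second, with the base that differs in capitals. Positions are counted from 1 at the 5′ end, and in a token such as U1G the base of the most abundant sequence comes first.
let-7i-5p: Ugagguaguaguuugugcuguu
let-7i-5p U1G: Ggagguaguaguuugugcuguu
miR-148a-3p: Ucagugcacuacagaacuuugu
miR-148a-3p U1G: Gcagugcacuacagaacuuugu
miR-99a: Aacccguagauccgaucuugu
miR-99a A1C: Cacccguagauccgaucuugu
miR-10b: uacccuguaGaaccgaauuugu
miR-10b G10U: uacccuguaUaaccgaauuugu
miR-744: ugcggggcuagggcuaacagC
miR-744 C21U: ugcggggcuagggcuaacagU

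A changed first base was the commonest class among the calls. It held 21 of the 43, against 13 with 1 changed base inside, 2 with a changed base at the 3′ end and 1 that was longer at the 3′ end. By kind of change, U1G made up 13 of the calls, A1C 5, G10U 4 and U1A 3. Listed zeros in Large White stood behind 18 of the 43, and such sequences could pass the filter on low counts through Pietrain alone, so these counts describe the calls and no share of the tested sequences is drawn from them. The U1G reads of these libraries had been seen in earlier work on the same data, so their count is no independent support.

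The let-7i-5p sequence with U1G had 106, 94.3 and 77.7 CPM in Pietrain and 6.56, 10.7, 7.43 and 7.51 CPM in Large White. Its log2 fold change was 3.34 ± 0.22 (edgeR adjusted p = 2.75e-04). That is 0.199% to 0.234% of the most abundant let-7i-5p sequence in Pietrain and 0.0217% to 0.0262% in Large White. The miR-148a-3p sequence with U1G had 399.9, 413 and 382 CPM against 19.2, 46.9, 28.0 and 40.4 CPM, at 3.38 ± 0.29 (edgeR adjusted p = 6.67e-04). The miR-99a sequence with A1C had 96.2, 164 and 140.4 CPM against 7.87, 9.94, 8.44 and 10.0 CPM, at 3.69 ± 0.26 (edgeR adjusted p = 2.75e-04), while the name miR-99a as a whole stood at -0.42. All 3 sequences had reads in every library and no overlap, and all were under 1% of the most abundant sequence of their name. Each of the other called sequences with 1 changed base that was higher in Pietrain was also under 1% of it in every library. Of the 43 called, 25 had reads in every library 16 were listed at 0 in 1 to 3 Large White libraries and 2 in all 4.

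Changes at position 10 were also among the calls. The miR-10b sequence with G10U had 32.5, 63.1 and 62.7 CPM in Pietrain and 6.56, 4.26, 5.40 and 2.50 CPM in Large White, at 3.28 ± 0.38 (edgeR adjusted p = 0.00357). Among the other calls, a sequence of miR-30a-5p and 1 of miR-99a were listed at 0 in all 4 Large White libraries, so no fold is given for them. The 2 sequences lower in Pietrain belonged to names whose summed level was also lower there. One was the miR-744 sequence with C21U, with 37.1, 26.1 and 20.5 CPM against 54.7, 58.2, 70.6 and 58.3 CPM, at -1.32 ± 0.25 (edgeR adjusted p = 0.0413). The other was a miR-148b-3p form longer at the 3′ end, with 19.2, 17.8 and 22.5 CPM against 51.6, 38.4, 36.8 and 34.3 CPM, at -1.22 ± 0.22 (edgeR adjusted p = 0.0346).

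Over all named reads, those with a changed first base made up 0.723%, 0.773% and 0.727% in Pietrain and 0.343%, 0.381%, 0.395% and 0.353% in Large White. The means were 0.741% ± 0.0279 (SD, n = 3) and 0.368% ± 0.0240 (SD, n = 4), with no overlap and an exact two-sided permutation p of 0.0571, the smallest that 35 arrangements of 7 libraries allow. After Benjamini-Hochberg adjustment over 9 measures of the libraries it was 0.257. Reads changed to A, to C and to G at the first base were each higher in every Pietrain library, at 0.122%, 0.314% and 0.251% against 0.0521%, 0.199% and 0.110% on average. Reads longer at the 3′ end made up 14.8% ± 0.366 (SD, n = 3) and 13.7% ± 0.558 (SD, n = 4), with the same exact permutation p. That difference of 1.14 percentage points was 0.30 as a median over the 20 most abundant names, where the changed first base kept 0.322 of its 0.373. The other 7 measures overlapped, mean read length among them at 21.9 nt in both breeds.

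By position, the median share of reads with 1 changed base over 20 abundant names was 0.630% to 0.656% at position 1 in Pietrain and 0.287% to 0.345% in Large White. At position 10 it was 0.212% to 0.222% and 0.110% to 0.139%. It was 0 at positions 2 to 7 in every library. Breed and the preparation or sequencing of the libraries, which the labels do not describe per breed, cannot be told apart for these reads.

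**Figure D5:**
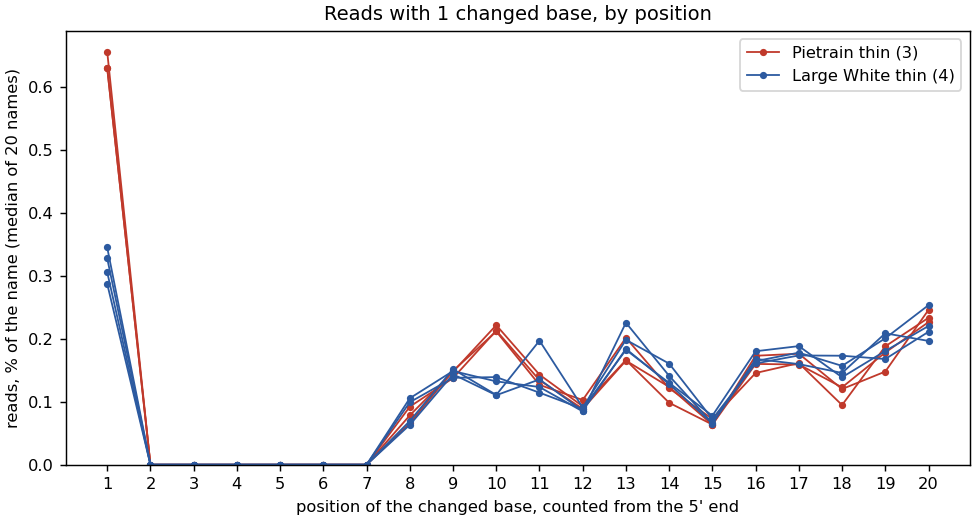
Share of reads with 1 changed base, as the median over 20 abundant names, at each position from the 5′ end; each line is a thin fat library, red for Pietrain (3) and blue for Large White (4). The lines part at position 1, at 0.630% to 0.656% against 0.287% to 0.345%, and at position 10.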

How the data were processed

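Small RNA of thin subcutaneous fat was compared between 3 Pietrain and 4 Large White libraries. Per the labels' protocols, RNA with an integrity number above 7.5 was made into libraries with a NEBNext small RNA kit and sequenced, per the series' design text, in 36 cycles. Tools named in the submitters' processing notes are bcl2fastq, FastQC and DESeq2, with the assembly Sscrofa10.2, while the trimmer, aligner and miRNA annotation are not given in the sources used here. The authors deposited raw read counts per sequence, 1 table per breed. The authors also deposited comparisons of fat classes, of which only the log2 fold change was used, to check labels. Unnamed sequences (at most 0.0516% of reads) stayed out.

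Counts were summed per name, joined, filtered with filterByExpr, scaled by TMM and tested with edgeR 4.0.16's quasi-likelihood test (robust; limma 3.58.1, R 4.3.3), p-values being adjusted after Benjamini-Hochberg and called under 0.05. SE is the size of the log2 fold change over the square root of F. Single sequences were filtered and scaled by themselves for their test, while their CPM and overlap used the scaling of the names. DESeq2 1.42.0, limma-voom, other scalings and filters, and leaving out each library were alternatives. The alternatives for single sequences, and the interaction without 2 Large White libraries, were added after seeing the data. A sequence's class is relative to the most abundant sequence of its name. Library measures used an exact permutation test (scipy 1.17.1). The scripts were tested on simulated data. Pairs of libraries of 1 group differed by at least 187 in chi-square per degree of freedom, so none agreed within sampling noise.

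The miRNAs named were the 10 of smallest p per direction, the 10 most abundant, the most abundant member and the member of smallest p of each list, and abundant names with a 0. In the lists a name without an arm stood for both arms. Others named were chosen after their values were seen. The comparison, the lists and this rule were chosen with earlier results of these data known. Host genes come from RefSeq's annotation of Sscrofa11.1, in which 54 of 55 names matched. No coordinates are given, as the submitters' notes name another assembly.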

Additional observations from a re-analysis of the deposited data

Results flagged for a closer look

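In 3 of 55 named miRNAs, 1 of the 4 Large White libraries stood apart from the others by more than 0.829 of the whole range, which chance gives in about 1 of 20 groups. miR-9843-3p had 56.1 CPM in replicate 2, next to 25.7 CPM in the nearest library. miR-708-5p had 292 CPM and miR-210 had 52.0 CPM in replicate 3, and both were listed at 0 in the other 3 Large White libraries.

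Names found in 1 breed's table only did not enter the comparison, and 3 of them had at least 100 reads in a thin fat library. miR-142-3p had 118 reads in Pietrain replicate 2 and 116 in the next library. miR-149 had 400 reads and miR-708-3p 134 reads in Large White replicate 3, and both had 0 in the other Large White thin fat libraries. The labels name no control samples, so these counts are set against 0 only.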

How the results depend on the processing

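No paired analysis was possible because the labels give the groups no shared replicate numbers. Depth limits low names, since a listed 0 can stand for up to 5 reads, and 3 against 4 libraries limits the test.

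Against 0 names called by edgeR, DESeq2 called 8, the test of single sequences called 43, and leaving out 1 library gave 0 to 2. For the interaction with fat class DESeq2 called 2 and leaving out 1 library gave 0 to 0. For single sequences DESeq2 called 141, and leaving out 1 library gave 25 to 45. Other scalings, filters and limma-voom called 0 names. The cause of these changes was not tested.

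The breed difference in mean read length ranged from -0.0263 to 0.0167 nt over left-out libraries, 0.0167 without Pietrain replicate 2 and 0.00360 without Large White replicate 3. The difference in reads with a shifted 5′ start was -0.0127 percentage points as a median over 20 names, and -0.0248 to 0.180 over left-out libraries, with -0.00175 without Large White replicate 2. With 1 changed base inside it was 0.0648 as that median. For the 10 most abundant names it was -1.77 to 1.16, and 0.166 without Large White replicate 3. The difference in reads with a changed first base stayed between 0.357 and 0.382.

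Over 51 named miRNAs, 850 of 904 values under alternatives kept direction and side of the threshold, 9 passed it and 45 changed sign, none of the 45 in the names DESeq2 called. The log2 fold changes that changed sign follow. With upper quartile scaling they were -0.071 for let-7a, -0.18 for miR-21, -0.15 for miR-222, -0.028 for miR-27b-3p, -0.18 for miR-30a-5p and -0.034 for miR-532-5p. With library totals only they were -0.0089 for let-7a, -0.16 for miR-21, -0.076 for miR-222 and -0.15 for miR-30a-5p. With limma-voom they were 0.0095 for miR-148a-3p, -5.78 for miR-10a-5p, -1.36 for miR-194a and -0.0015 for miR-222. With no filter on low counts they were -0.0059 for miR-21 and -0.019 for miR-30a-5p. With a mean of at least 10 CPM they were -0.0051 for miR-21 and -0.034 for miR-30a-5p. With the most abundant sequence only they were -0.045 for miR-21, -0.14 for miR-222, -0.076 for miR-221-3p and -0.030 for miR-30a-5p. With the spread of thin and thick libraries they were -0.018 for miR-21 and -0.022 for miR-30a-5p. With names above 0 in every library they were 0.0061 for miR-148a-3p. Leaving out each library in turn gave -0.15 to 0.038 for miR-148a-3p, -0.19 to 0.091 for miR-126-3p, -0.19 to 0.99 for miR-10a-5p, -1.93 to 0.24 for miR-429, -1.27 to 0.88 for miR-194a, -0.43 to 0.30 for miR-21, -0.035 to 4.98 for miR-122, -0.087 to 0.61 for miR-92a, -0.16 to 0.20 for miR-222, -0.054 to 0.12 for miR-30a-5p and -0.31 to 0.0066 for miR-30c-5p.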
